A study of Mus musculus with 2 samples.

Results

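The cells described here are tumor phagocytes with the highest summed expression of Mmp9, Pdpn and Syngr1, and they numbered 698 of 23792 barcodes. They came from fibrosarcomas of wild-type C57BL/6 mice, a syngeneic tumor grown under the skin; the tumor line and the number of animals are not given in the sources used here. The minced tumors were incubated for 45 min at 37 degrees C in an enzyme mix of collagenase and DNase, red cells were lysed, and the suspension was run over magnetic columns. The material eluted from the column is called iron-positive and the flowthrough iron-negative, with 1 single-cell library made from each in droplets (10x Genomics, 3' chemistry), in which each unique molecular identifier (UMI) stands for 1 captured transcript. With 1 library for each fraction, no difference below has a replicate error or a p-value, and the column's retention of cells for reasons other than iron was not tested.

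Members were chosen by a fixed rule on measured values. A barcode needed at least 3000 UMIs, at most 15% mitochondrial UMIs and at least 3 of the phagocyte genes Csf1r, Cd68, Ctss and Fcgr3, with at most 1 UMI of Cdh5, 2 of Rgs5 and 3 of Col1a1. That left 7040 iron-positive and 8279 iron-negative phagocytes. A limit of under 5 UMIs of Mmp12 per 10000 then left 5886 iron-positive and 8084 iron-negative cells, called eligible, and the members were the top 5% of these pooled cells by summed UMIs of Mmp9, Pdpn and Syngr1 per 10000. The rule took 397 iron-positive and 301 iron-negative members. The lowest score taken was 8.79 per 10000 and the highest score left out was 8.78, so the threshold cuts a continuous range. Median scores were 12.7 per 10000 in iron-positive and 12.6 in iron-negative members, against 1.32 and 1.23 in the other eligible cells of the same libraries. Levels of the 3 rule genes and of Mmp12 are given only as a description of this choice.

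Mmp9 encodes gelatinase B, a secreted protease that cleaves denatured collagen and collagen of basement membranes. Pdpn encodes podoplanin, a mucin-type membrane protein that binds the receptor CLEC-2 and links to the cortical actin skeleton, and Syngr1 encodes synaptogyrin 1, a protein of synaptic and other small vesicles. Arg1 encodes arginase 1, which splits arginine into ornithine and urea and is often high in macrophages of tumors and wounds. Mmp9 lies on mouse chromosome 2 (mm10, chr2:164940780-164955850, plus strand), Pdpn on chromosome 4 (chr4:143267431-143299564, minus strand), Syngr1 on chromosome 15 (chr15:80091334-80119501, plus strand) and Arg1 on chromosome 10 (chr10:24915221-24927484, minus strand). All are protein-coding genes.

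The libraries were of similar total size, with 13668 barcodes and a median of 6079 UMIs in the iron-positive one and 10124 barcodes and a median of 12246.5 UMIs in the iron-negative one. Members had medians of 10052 UMIs and 2925 genes in the iron-positive library, against 11324 UMIs and 3188 genes in its other eligible cells. In the iron-negative library they had 11314 UMIs and 3214 genes, against 14254 UMIs and 3684 genes. Both libraries held 85 identical barcode sequences, of which 7 belonged to members and 0 to a member in both libraries.

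The label of 4 genes was met by few single cells. All 3 rule genes were detected in 96 of 397 iron-positive members (24.2%) and 55 of 301 iron-negative members (18.3%), while Mmp9 and Pdpn together were detected in 57.9% and 53.2%. Pdpn had the most UMIs of the 3 in 205 iron-positive and 165 iron-negative members. Mmp9 led in 162 and 130 members of the same libraries. Syngr1 led in 16 iron-positive and 2 iron-negative members, and it supplied 5.28% and 3.03% of the rule's UMIs. Mmp9 supplied 64.5% of these UMIs in the iron-positive and 71.8% in the iron-negative library, and Pdpn 30.2% and 25.2%. The cells are therefore called Mmp9-Pdpn phagocytes below. Arg1, which the rule did not use, was detected in 95.7% of iron-positive and 97.3% of iron-negative members.

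Phagocyte genes outside the gate were abundant. Summed over 10 mononuclear phagocyte markers, of which the gate used 4, members had 23778 UMIs per 1000000 (counts scaled to that total, CPM) in the iron-positive library and 20957 CPM in the iron-negative one, against 20085 and 20109 CPM in the other eligible cells. Lyz2, the lysozyme of myeloid cells, stood at 9520 and 6404 CPM in members of these libraries, against 5993 and 5555 CPM. Markers of several other immune cells were scarce: the dendritic, T or NK, B or plasma, mast and erythroid lists summed to between 0.25 and 8.64 CPM in members of either library, against 0.08 to 12.6 CPM in the other eligible cells. Neutrophil markers were higher, at 159 CPM in iron-positive and 68.1 CPM in iron-negative members, against 75.5 and 47.0 CPM in the other eligible cells, and their part in the results was not tested on its own. With cells holding markers of other immune cells left out, the rule took 545 cells, of which 474 were among the 698.

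Within the members, 7 iron-positive and 6 iron-negative cells carried an osteoclast-like set of transcripts. Osteoclasts are the bone-resorbing cells of the monocyte lineage, and their usual products include the collagen-degrading cathepsin K (Ctsk), tartrate-resistant acid phosphatase (Acp5), the fusion proteins Dcstamp and Ocstamp, the receptor Oscar, the proton pump subunit Atp6v0d2 and also Mmp9. These cells had at least 6 of 8 osteoclast markers, a limit set after the values were seen, and 0 of the 13272 other eligible cells or 1349 Mmp12-high cells reached it. Ctsk ranged over 316 to 533 UMIs per cell in the iron-positive library and 181 to 906 in the iron-negative library. Acp5 ranged over 273 to 672 UMIs and 179 to 1322 UMIs. Calcr, the calcitonin receptor of mature osteoclasts, was at 0 in all of them, as it was in all members.

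These few cells dominated several totals. They held 40.0% of the iron-positive and 34.3% of the iron-negative members' Mmp9 UMIs, 90.7% and 88.5% of the Ctsk UMIs, and 100% of the Oscar UMIs. Pdpn had 0 UMIs in the iron-positive cells and 1 UMI in the iron-negative ones. Arg1 ranged over 0 to 7 UMIs in the iron-positive cells and 0 to 116 in the iron-negative cells. Pf4 did not exceed 4 UMIs in any of them, and Hmox1 reached at most 3 UMIs in the iron-positive and 12 in the iron-negative cells. Their median depth was 25696 UMIs in the iron-positive and 32794.5 in the iron-negative library, with 8.37% and 7.57% mitochondrial UMIs, against medians of 9918.5 and 11277 UMIs and 2.57% and 2.79% in the remaining members. The part that doublets or cell quality play in this set was not tested. Another 4 iron-positive and 10 iron-negative members had at least 10 UMIs of both Mmp9 and Ctsk without reaching the marker limit. Counts of called genes below are also given without the 7 and 6 cells where the number differs.

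**Figure D1:**
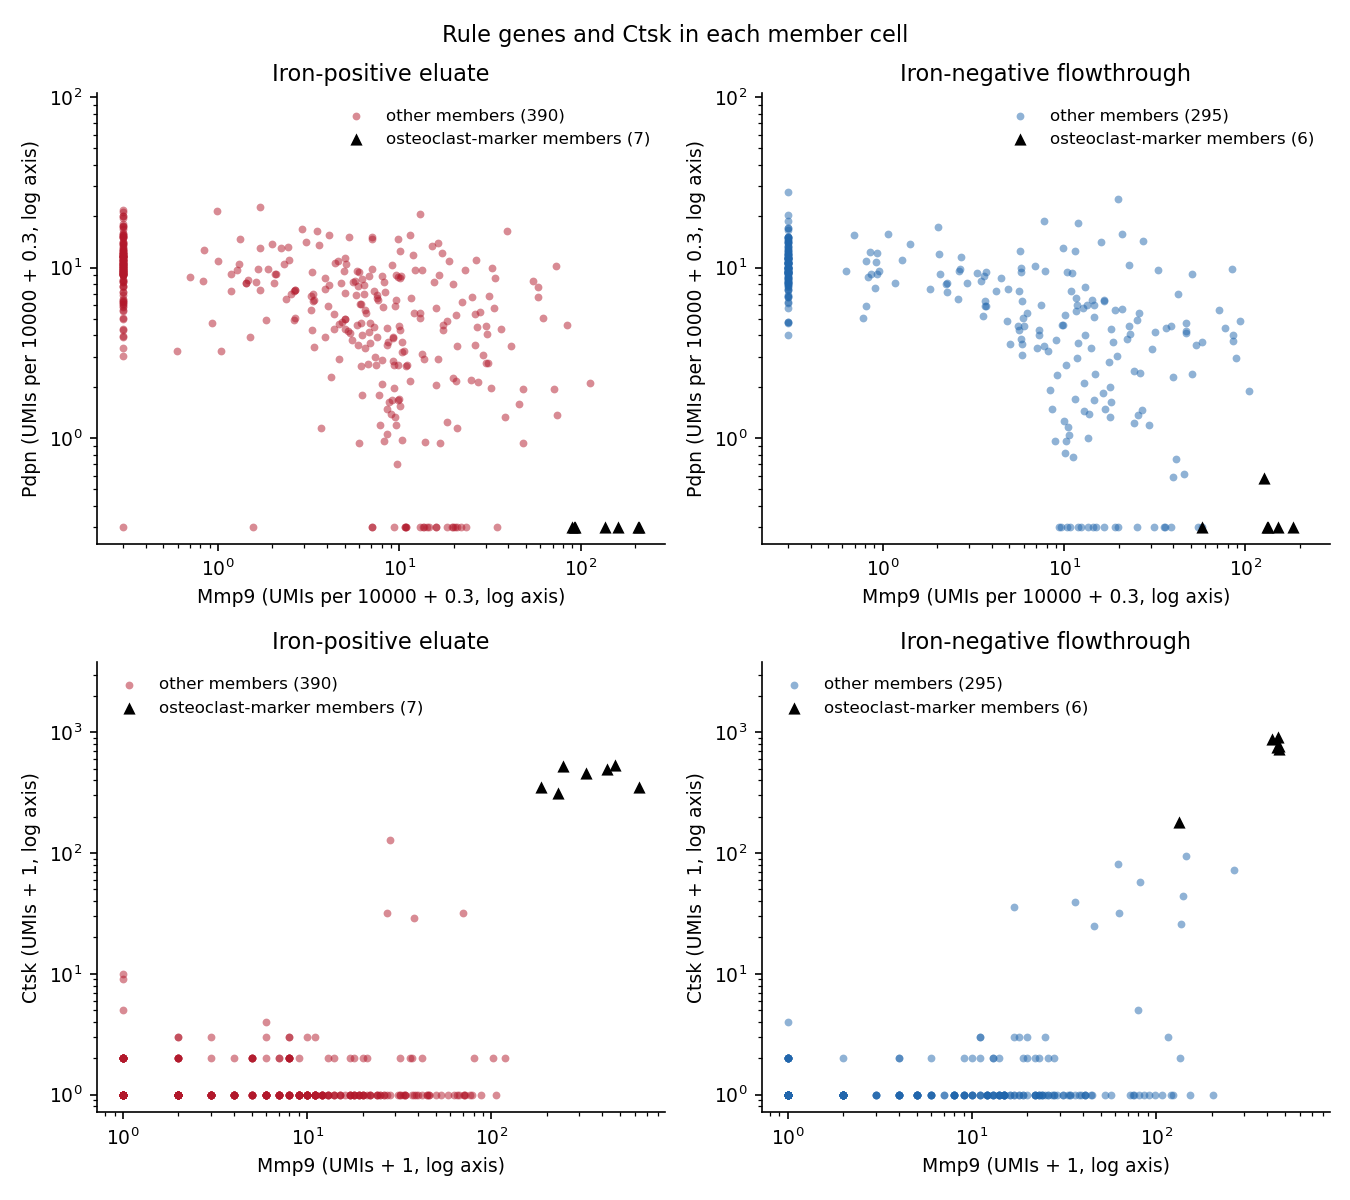
Each point is 1 member cell, with iron-positive cells at left and iron-negative cells at right. The top row plots Mmp9 against Pdpn (UMIs per 10000 plus 0.3, log axes) and the bottom row Mmp9 against Ctsk (UMIs plus 1, log axes); the 7 and 6 osteoclast-marker cells, drawn as triangles, lie at high Mmp9 and Ctsk with Pdpn at or near 0.

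The first comparison asked how the Mmp9-Pdpn phagocytes divide between the magnetic fractions. They made up 6.74% of eligible iron-positive cells (exact 95% binomial interval 6.12 to 7.42) and 3.72% of eligible iron-negative cells (3.32 to 4.16), a ratio of 1.81 (1.56 to 2.11). All intervals cover counting error only. The size of the ratio depended on the denominator, and the Mmp12 limit alone removed 1154 iron-positive and 195 iron-negative phagocytes. Over all gated phagocytes the shares were 5.64% and 3.64%, a ratio of 1.55 (1.33 to 1.81), and over all barcodes past the UMI and mitochondrial limits the ratio was 1.34 (1.15 to 1.56). In ranges of depth per cell the ratio was 1.66 at 3000 to 8000 UMIs, 1.31 at 8000 to 15000 UMIs and 2.34 above 15000 UMIs. The iron-positive library held the larger share in each of these ways of counting.

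The second comparison set members against the other eligible phagocytes of their own library. Counts were summed over cells and given as CPM, and a gene was called when the groups differed at least 2-fold in the same direction in both libraries. Of 7580 genes at 10 CPM or more in either group of each library, 83 were called higher (1.09%) and 113 lower (1.49%). Without the osteoclast-marker cells the numbers were 63 higher (0.834%) and 104 lower (1.38%) of 7556 genes, of which 60 and 100 were among the first. The median log2 ratio over all genes was -0.10 in the iron-positive and -0.04 in the iron-negative library. A gene that passed the CPM limit only through the members had to be higher there. Likewise, a gene that passed only through the other cells had to be lower in members, so these counts describe the tables.

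Arg1 was higher in members in both libraries. It stood at 3792 CPM in iron-positive members, against 1412 CPM in the other iron-positive cells, and at 3085 CPM in iron-negative members, against 1311 CPM. The log2 ratios were 1.43 (1.40 to 1.45) and 1.23 (1.21 to 1.26). Among single iron-positive members Arg1 ranged over 0 to 213.9 UMIs per 10000 with a median of 28.4, against 0 to 172.5 with a median of 6.35 in the other cells. In iron-negative members the median was 24.5, against 7.51. The distributions overlapped widely, and 17 iron-positive and 8 iron-negative members had no Arg1 UMI. With every cell thinned to 3000 UMIs, Arg1 was detected in 89.7% of iron-positive members and 69.6% of the other cells, against 13.1% of 283 endothelial-like cells of that library, which should lack it. The unthinned shares were 95.7%, 85.1% and 45.6%, at median depths of 10052, 11324 and 17623 UMIs. In the iron-negative library the thinned shares were 91.4% of members and 75.7% of the other cells.

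Other genes of arginine use were also higher. Of 16 measured genes of arginine, proline and polyamine metabolism, 4 were called higher and 0 lower. They were Arg1, Arg2, the mitochondrial arginase, Nos2, which makes nitric oxide from arginine, and P4ha2, a collagen prolyl hydroxylase. Nos2 stood at 141 CPM in iron-positive members, against 49.5 CPM, and at 123 CPM in iron-negative members, against 36.5 CPM. Its UMIs were found in 102 of 397 and 75 of 301 members, so most members had none. Gatm, which uses arginine to start creatine synthesis, gave log2 ratios of -1.46 and -0.46 and was not called.

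Chemokines included some of the highest ratios outside the osteoclast genes. Of 18 measured chemokines 5 were called higher and 0 lower. Ppbp, which yields the neutrophil-attracting NAP-2, stood at 141 CPM in iron-positive members, against 14.1 CPM, and at 75.2 CPM in iron-negative members, against 4.64 CPM. Only 60 and 34 members carried it, and 5 cells of each library held 46.1% and 45.3% of its UMIs. Cxcl3, also a ligand of the receptor CXCR2, stood at 242 CPM in iron-positive members, against 31.9 CPM, and at 115 CPM in iron-negative members, against 12.9 CPM. Pf4, or CXCL4, was broad, with UMIs in 389 of 397 and 296 of 301 members. It stood at 7189 CPM in iron-positive members, against 1973 CPM, and at 5275 CPM in iron-negative members, against 1288 CPM. Ccl6 and Ccl9, ligands of CCR1, had log2 ratios of 1.15 and 1.18 in the iron-positive library and 1.29 and 1.20 in the iron-negative one.

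Ppbp, Pf4 and Cxcl3 are neighbours on the plus strand of chromosome 5 (mm10), with Ppbp at chr5:90768518-90770063, Pf4 at chr5:90772435-90773383 and Cxcl3 at chr5:90786103-90789600. Cxcl5, which was not in the chemokine list and lies at chr5:90759360-90761624, had log2 ratios of 2.67 and 3.70 for members over other cells. It stood at 22.1 CPM in iron-positive members, against 3.48 CPM, and at 27.2 CPM in iron-negative members, against 2.09 CPM. Cxcl5 thus passed the CPM limit only through the members and had to be higher there. Cxcl1 and Cxcl2, which start at chr5:90891241 and chr5:90903871, had ratios of 0.89 and 0.93 in the iron-positive library and 1.19 and 1.06 in the iron-negative one. This stretch of the chromosome was chosen after the values were seen. Pf4 and Ppbp are also abundant in platelets, so 10 platelet and megakaryocyte genes were examined. Their summed level was 2.23 CPM in iron-positive members and 1.52 CPM in iron-negative members, against 1.84 and 1.19 CPM in the other cells. The largest part came from Clec1b, at 1.34 CPM in iron-positive members, against 1.04 CPM, and at 1.02 CPM in iron-negative members, against 0.62 CPM. Gp1bb, a chain of the platelet von Willebrand factor receptor, was at 0 in members of both libraries. It had only 2 UMIs in the other iron-positive cells and 1 UMI in the other iron-negative cells. The part of platelet RNA in the Pf4 and Ppbp levels was not tested.

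The 250 bases before the start of these 3 chemokine genes and of Pdpn are shown. The chemokines were chosen because they were higher together. Pdpn was chosen as the leading rule gene of 51.6% of iron-positive and 54.8% of iron-negative members. The sequences are from RefSeq on GRCm38.p6, read 5′ to 3′ on the strand of the gene. They lie at chr4:143299565-143299814 on the minus strand for Pdpn and, on the plus strand, at chr5:90768268-90768517 for Ppbp, chr5:90772185-90772434 for Pf4 and chr5:90785851-90786100 for Cxcl3. Capitals mark matches, on either strand, to the hypoxia core ACGTG, the AP-1 site TGANTCA or the antioxidant element TGACNNNGC.
Pdpn: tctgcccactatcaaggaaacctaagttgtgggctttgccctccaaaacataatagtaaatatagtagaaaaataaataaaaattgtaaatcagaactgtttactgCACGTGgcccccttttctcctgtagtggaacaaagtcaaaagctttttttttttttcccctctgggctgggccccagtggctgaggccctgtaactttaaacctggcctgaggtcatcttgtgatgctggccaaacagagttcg
Ppbp: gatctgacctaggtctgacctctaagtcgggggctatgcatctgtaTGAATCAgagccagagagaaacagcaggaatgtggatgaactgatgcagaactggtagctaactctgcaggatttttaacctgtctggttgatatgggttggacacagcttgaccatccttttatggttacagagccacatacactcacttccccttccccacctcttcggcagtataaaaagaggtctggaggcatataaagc
Pf4: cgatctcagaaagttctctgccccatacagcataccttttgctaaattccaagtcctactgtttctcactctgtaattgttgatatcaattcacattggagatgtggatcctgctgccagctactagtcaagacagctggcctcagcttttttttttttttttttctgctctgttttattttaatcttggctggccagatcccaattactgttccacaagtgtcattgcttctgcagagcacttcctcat
Cxcl3: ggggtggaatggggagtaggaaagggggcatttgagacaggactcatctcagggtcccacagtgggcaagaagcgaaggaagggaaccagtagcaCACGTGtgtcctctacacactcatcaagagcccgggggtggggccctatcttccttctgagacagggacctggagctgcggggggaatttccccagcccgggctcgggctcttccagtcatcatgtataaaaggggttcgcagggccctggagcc
Pdpn and Cxcl3 each held CACGTG, which reads as ACGTG on both strands. These are matches of sequence only, and which factor, if any, binds there was not tested. Ppbp held TGANTCA once, and Pf4 held none of the 3 motifs in this window. Among 32851 mouse promoter windows of the same length, 16.6% held ACGTG, 6.75% TGANTCA and 10.2% TGACNNNGC. Of the rule genes and the 15 genes with the largest ratios, 12 had a sequence in the table, and ACGTG was in 3 of these, Cxcl3, Pdpn and Slpi.

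Heme and iron genes formed a smaller group. Of 21 measured genes 3 were called higher and 1 lower. Hmox1, the heme oxygenase that opens the heme ring and frees its iron, stood at 2922 CPM in iron-positive members, against 1013 CPM, and at 1067 CPM in iron-negative members, against 340 CPM. Slc48a1, which carries heme out of the phagolysosome, had log2 ratios of 1.05 and 1.06. Slc40a1, the iron exporter ferroportin, had ratios of 1.35 and 1.68, the second on 58 UMIs in 18 iron-negative members. Cp, the ferroxidase ceruloplasmin, was lower, with ratios of -2.66 and -1.76 on 13 and 20 member UMIs. Of 14 measured targets of the antioxidant factor NRF2, 3 were called higher and 0 lower: Gclm and Gclc, the subunits of the enzyme that begins glutathione synthesis, and the glutathione reductase Gsr. Gsr was not called without the osteoclast-marker cells, with ratios of 1.26 and 0.90.

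Most hypoxia and glycolysis genes had ratios above 0 in members, where 38.6% of all 7580 genes did. Of 19 measured hypoxia genes 2 were called higher and 0 lower, and 17 had a mean log2 ratio above 0; without the osteoclast-marker cells 3 were called higher. Hilpda, which blocks lipid breakdown in lipid droplets, stood at 753 CPM in iron-positive members, against 337 CPM, and at 613 CPM in iron-negative members, against 259 CPM. Egln3, an oxygen-sensing prolyl hydroxylase, had log2 ratios of 1.63 and 2.02. Vegfa, the endothelial growth factor, had ratios of 0.97 and 0.92 and was not called. Of 15 glycolysis genes 0 were called, and 15 were above 0, with medians of 0.39 in the iron-positive and 0.44 in the iron-negative library.

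Genes of matrix, coagulation and lipid handling added to the profile. Of 20 measured matrix proteases and inhibitors other than the rule's, 5 were called higher (Ctsk, Spp1, Mmp13, Ctsl and Adam8) and 1 lower, and Spp1, osteopontin, was not called without the osteoclast-marker cells. Ctsl, a lysosomal and secreted cathepsin, stood at 2224 CPM in iron-positive members, against 1053 CPM, and at 1956 CPM in iron-negative members, against 828 CPM. Mmp13, a collagenase, and Adam8, a membrane protease, had ratios between 1.08 and 1.30, and the membrane-bound Mmp25 was lower, at -1.73 and -1.45. Of 11 coagulation and fibrinolysis genes 3 were called higher, F7, Thbd and Procr, which encode factor VII, thrombomodulin and the protein C receptor. All 11 had a mean ratio above 0, where 38.6% of all measured genes did. In the iron-negative library 5 cells held 59.4% of 64 Procr UMIs, 44.1% of 59 F7 UMIs and 15.4% of 208 Thbd UMIs. Fn1, the fibronectin gene, had ratios of 1.31 and 1.42, and Thbs1, thrombospondin 1, had 1.21 and 1.10. Of 17 genes of lipid-associated macrophages 2 were called higher, and 3 without the osteoclast-marker cells, where Fabp5 was added. The first were Gpnmb, a lysosomal glycoprotein, with ratios of 1.63 and 2.60, and the fatty acid receptor Cd36, with 1.82 and 2.26. Of their iron-negative UMIs, 5 cells held 53.2% for Gpnmb and 28.0% for Cd36. Slpi, a secreted inhibitor of neutrophil elastase, stood at 183 CPM in iron-positive members, against 45.5 CPM, and at 80.5 CPM in iron-negative members, against 11.8 CPM, but 5 cells held 75.4% of its iron-negative UMIs.

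Acp5 and Mt3 stood among the largest ratios through the small osteoclast-marker set, and Ctsk in part through it. Ctsk had log2 ratios of 6.13 and 6.70 over all members and 2.76 and 3.65 without those cells. Acp5 had ratios of 2.48 and 2.84 over all members and -0.12 and -0.32 without them. Mt3, a metallothionein, had ratios of 3.15 and 9.12 over all members and -0.24 and 1.86 without them. The osteoclast-marker cells held 400 of the 402 iron-negative Mt3 UMIs. The remaining iron-negative members stood at 0.53 CPM, so the 1.86 is a value near 0 counts.

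Antigen presentation and the cell cycle were lower in the Mmp9-Pdpn phagocytes. Of 8 measured genes of MHC class II presentation 7 were called lower and 0 higher, with medians of -2.03 in the iron-positive and -1.64 in the iron-negative library. H2-Aa, an alpha chain of the class II molecule, stood at 601 CPM in iron-positive members, against 2831 CPM, and at 1154 CPM in iron-negative members, against 3681 CPM. Per cell it ranged over 0 to 77.7 UMIs per 10000 with a median of 1.76 in iron-positive members, against 0 to 160.4 with a median of 18.7 in the other cells. Ciita, the master regulator of these genes, was lower too, at 3.57 and 6.35 CPM in members of the 2 libraries, against 25.5 and 30.3 CPM.

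Of 16 measured S and G2M genes 11 were called lower and 0 higher, with medians of -1.97 and -1.17, and 10 were called lower without the osteoclast-marker cells. Several had few UMIs over all iron-positive members, with 28 for Birc5, 18 for Cenpf, 14 for Ccna2 and 12 for Rrm2. Top2a, the topoisomerase that untangles replicated DNA, stood at 18.1 CPM in iron-positive members, against 139 CPM, and at 59.7 CPM in iron-negative members, against 130 CPM. Cells with at least 10 UMIs over these genes made up 19.9% of iron-positive members, against 37.2% of the other cells, and 27.6% of iron-negative members, against 51.5%. Members also had fewer UMIs per cell, and the part of depth in these shares was not tested. The recruitment receptors Ccr2 and Cx3cr1 and the integrin Itgax were called lower among 13 genes of chemokine receptors and homing. Il1r2, a decoy receptor for interleukin 1, was the 1 gene called of 15 in the inflammatory cytokine list, with ratios of -2.30 and -1.39. It had 54 UMIs over all iron-positive and 80 over all iron-negative members. Of 16 alternative activation genes 2 were called lower and 0 higher: Retnla, with 4 and 15 UMIs over all members, and the lectin Mgl2. Of all 7580 genes 1.49% were called lower, and the counts in these short lists are given only as a description.

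**Figure D2:**
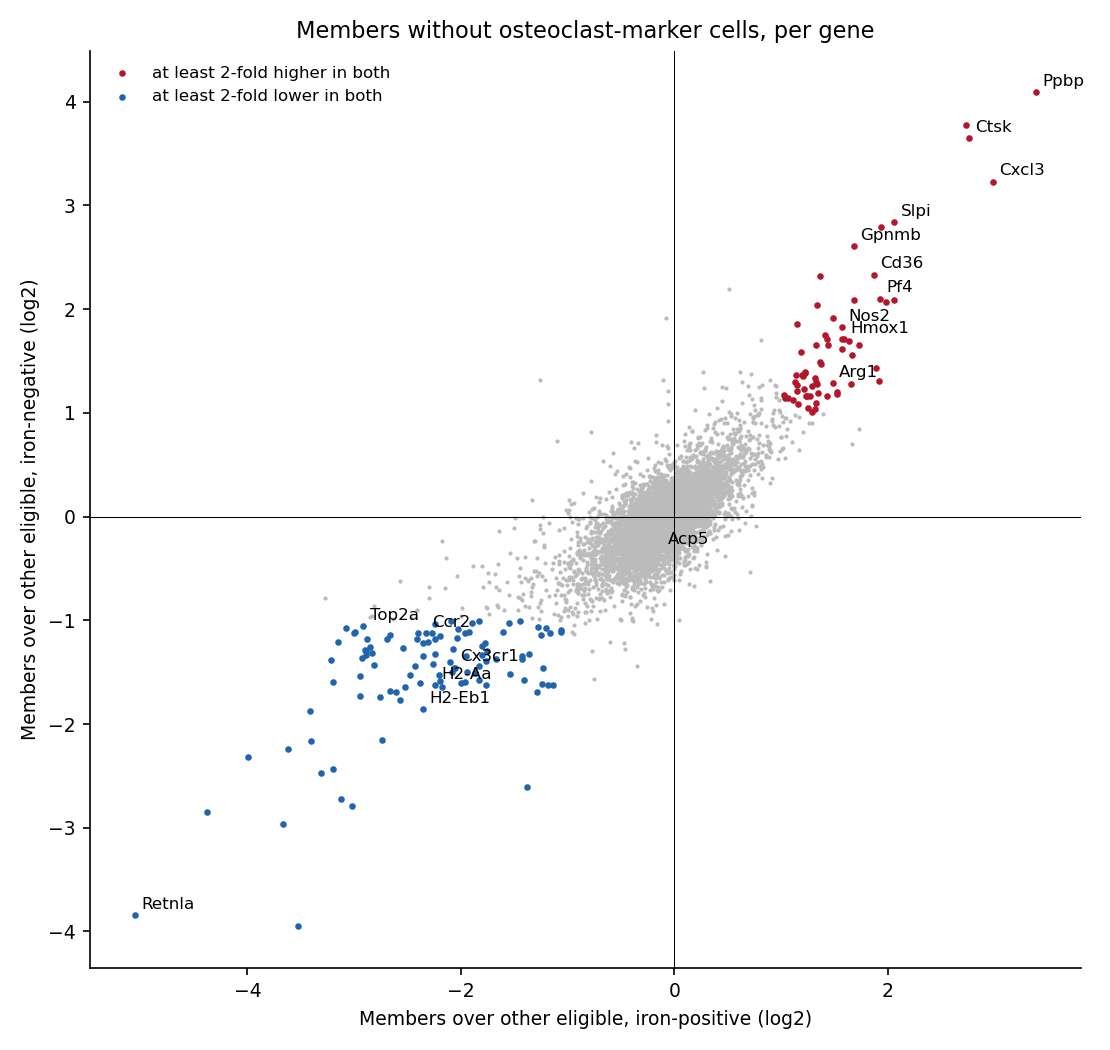
Each point is a gene, with the log2 ratio of members without osteoclast-marker cells over other eligible cells in the iron-positive library across and in the iron-negative library up. Coloured genes were called in both libraries, 63 higher and 104 lower. Of the labelled genes, Ppbp, Cxcl3 and Ctsk lie farthest up at right, Retnla at lower left, and Acp5 near 0. Cxcl5, which is not labelled, lies at 2.73 across and 3.77 up. It passed the CPM limit in both libraries only through the members.

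Genes usually thought of as partners of Pdpn and Syngr1 were also listed, and their counts are near those of the whole table, in which 1.09% of genes were called higher and 1.49% lower. Of 11 measured membrane skeleton and migration partners of podoplanin 0 were called, with medians of 0.31 and 0.13. The epithelial membrane protein gene Emp1 had ratios of 0.83 and 0.73, and moesin (Msn), which ties podoplanin to actin, had 0.23 and 0.13. Of 13 vesicle genes 0 were called, with medians of -0.16 and -0.05. Syngr2, the widely expressed relative of Syngr1, had ratios of -0.44 and -0.20.

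Some levels followed the rule's score across all eligible cells. Of 23 genes examined in bins of the score, 8 lay higher and 3 lower at each step in both libraries, and 12 did not keep one order. In 6 bins of rising score from the lowest 50% to the top 2.5%, with osteoclast-marker cells left out, Arg1 stood at 974, 1433, 2144, 2625, 3413 and 4482 CPM in the iron-positive library. The iron-negative bins stood at 1061, 1406, 1787, 2004, 2966 and 3487 CPM. Pf4 stood at 1120, 2000, 3299, 4665, 6310 and 8671 CPM in the iron-positive bins, and it climbed at each step in the iron-negative bins as well. H2-Aa declined at each step in both libraries, to 468 CPM in the top iron-positive bin and 1019 CPM in the top iron-negative bin. Cells just below the threshold, in the bin from 90% to 95%, had Arg1 and H2-Aa levels between those of members and of the lower bins. Nos2 did not keep an order, at 48.1, 40.1, 69.4, 43.0, 126 and 169 CPM in the iron-positive bins, and Cx3cr1 was higher in the second bin than in the first in both libraries. Ctsk stayed between 6.98 and 22.2 CPM in the first 5 bins of both libraries and stood at 124 and 296 CPM in the top bin. The general phagocyte gene Adgre1 varied little, between 265 and 328 CPM in the iron-positive bins and between 381 and 446 CPM in the iron-negative ones.

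**Figure D3:**
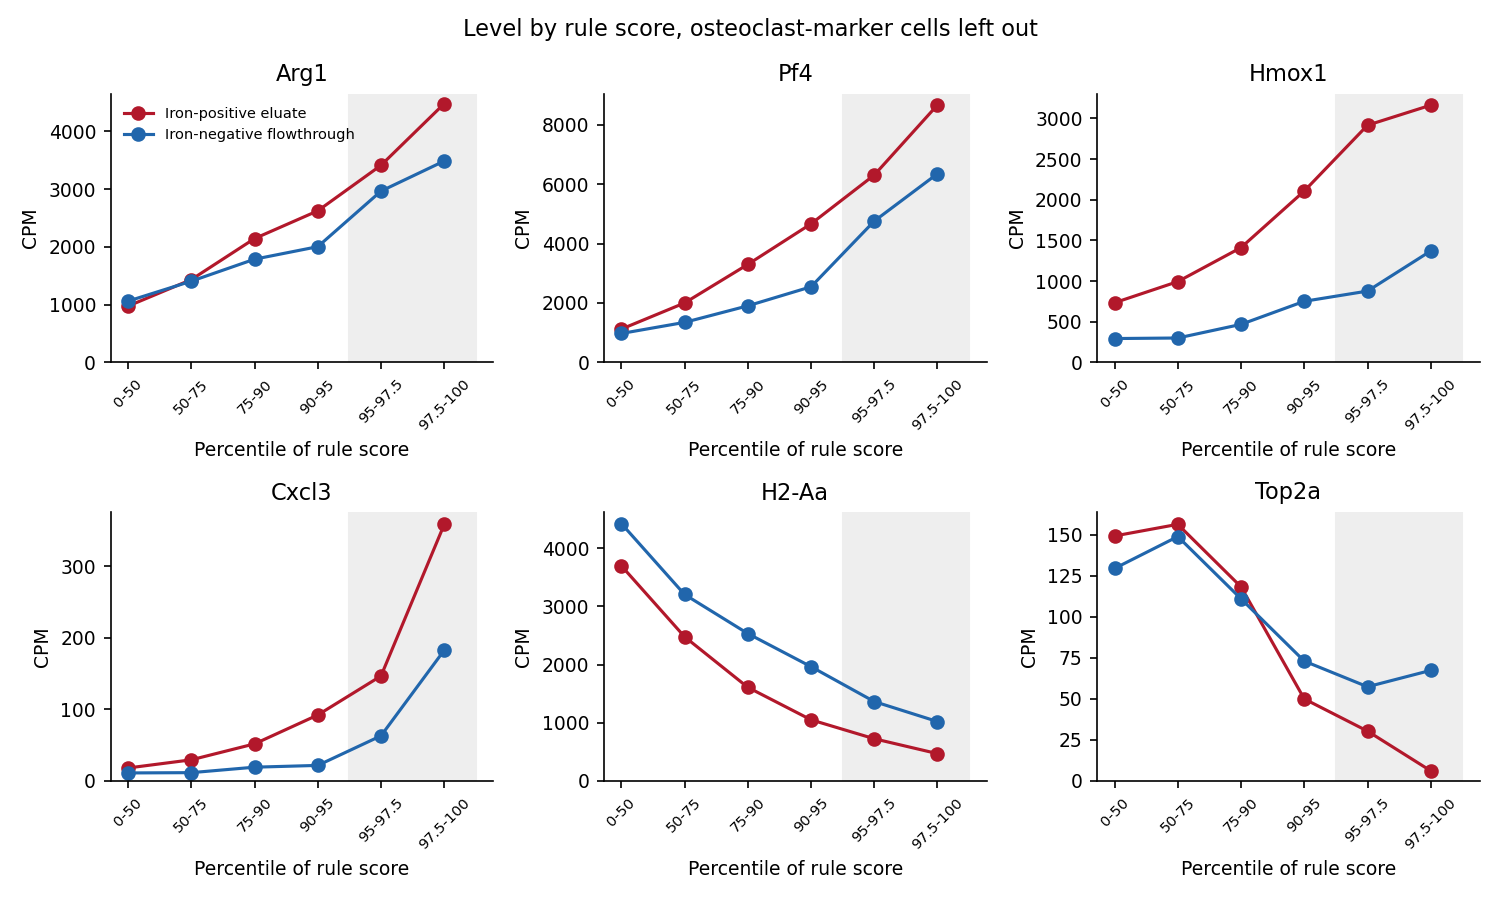
CPM of 6 genes in bins of the rule's score (percentile of the pooled eligible cells), with iron-positive cells in red and iron-negative cells in blue, each point being 1 bin of 1 library, and members shaded. Arg1, Pf4, Hmox1 and Cxcl3 lie higher in the higher bins and H2-Aa lower, with Arg1 at 4482 and 3487 CPM in the top bin.

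Few genes outside the rule differed between members led by Mmp9 and members led by Pdpn. Without osteoclast-marker cells, 155 iron-positive and 124 iron-negative Mmp9-led members were set against 205 and 165 Pdpn-led members. Of 7266 genes 3 were called higher (0.0413%) and 9 lower (0.124%) in the Mmp9-led cells. Ctsk stood at 129 CPM in iron-positive Mmp9-led members, against 29.4 CPM in Pdpn-led ones. In the iron-negative library it stood at 303 against 8.79 CPM. Even with osteoclast-marker cells counted, only 76 of 397 iron-positive and 52 of 301 iron-negative members had a Ctsk UMI. The 4 and 10 members with at least 10 UMIs of both Mmp9 and Ctsk, given above, were not left out here. Saa3, an acute-phase protein, Rsad2, an interferon-induced antiviral enzyme, Fcrls and Cbr2 were among the genes called lower in Mmp9-led members. Rsad2 had log2 ratios of -1.22 in the iron-positive and -1.31 in the iron-negative library, and Saa3 had -1.10 and -1.69. Arg1 stood at 3977 CPM in iron-positive Mmp9-led members, against 4057 CPM in Pdpn-led ones, and at 3213 against 3267 CPM in the iron-negative library. The 16 iron-positive Syngr1-led members had 1720 CPM of Arg1, 512.8 CPM of Slc40a1 and 5.34 CPM of Cxcl3.

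The Mmp9-Pdpn phagocytes overlapped other high-scoring states unevenly. Each state was the top 5% of the same eligible cells by its own genes and so also held 698 cells. Of iron-positive members 25.7% were among the Arg1-high cells, against 6.18% of all eligible iron-positive cells, and of iron-negative members 19.9%, against 4.13%. The Nos2-high state held 13.1% of iron-positive members, against 5.74% of eligible cells, and 12.96% of iron-negative members, against 4.45%. In the next states the members' share lay below that of eligible cells in the iron-positive library and above it in the iron-negative one. The state of Cd209f, Cd163 and Lyve1 held 6.55% of iron-positive members, against 8.04% of eligible cells, and 4.98% of iron-negative members, against 2.78%. The state of Retnla and Cbr2 held 2.27% of iron-positive members, against 3.72%, and 7.64% of iron-negative members, against 5.93%. Over both libraries 46 members were high in Ifit genes, 14 in Ly6c2 and Plac8, 12 in Il1r2 and Ifitm1, 10 in Fcrls and Cx3cr1, 9 in Gbp2b and Serpina3g, 7 in cycling genes and 1 in MHC class II, where 5% of eligible cells belong to each state. 

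The nearest comparison group was the Mmp12-high phagocytes that the rule set aside, 1154 iron-positive and 195 iron-negative cells. Of the 63 genes called higher in members without osteoclast-marker cells, 20 were at least as high there in both libraries and 27 were higher in members in both. Arg1 stood at 3792 CPM in iron-positive members, against 4128 CPM in Mmp12-high cells, and at 3085 CPM in iron-negative members, against 2925 CPM. Hmox1 stood at 2922 CPM in iron-positive members, against 3969 CPM, and at 1067 CPM in iron-negative members, against 1327 CPM. Cxcl3 stood at 242 CPM in iron-positive members, against 339 CPM, and at 115 CPM in iron-negative members, against 82.5 CPM. Without osteoclast-marker cells, 27 of 7282 genes were called higher in members than in Mmp12-high cells (0.371%) and 31 lower (0.426%). The median log2 ratio of hypoxia genes was then -0.43 in the iron-positive and -0.17 in the iron-negative library. It was -0.37 and -0.15 for glycolysis genes and -0.35 and -0.50 for NRF2 targets, against 0.04 and 0.07 over all genes. Other lists lay above 0, such as complement, at 0.64 and 0.60, and alternative activation, at 0.38 and 0.87. Pf4 stood at 7189 CPM in iron-positive members, against 4935 CPM, and at 5275 CPM in iron-negative members, against 2359 CPM. Ccl8, a monocyte-attracting chemokine, stood at 3392 CPM in iron-positive members, against 1159 CPM, and at 7693 CPM in iron-negative members, against 2076 CPM. Selenop, the selenium carrier, the adhesion molecule Vcam1, the scavenger receptor Stab1, Igfbp4, Cbr2 and the polyamine enzyme Odc1 were also among the genes called higher. The interleukin receptor genes Il1r2 and Il7r, the activin gene Inhba, Mmp13, Itgax and the tetraspanin Cd9 were called lower. Mmp13 stood at 135 CPM in iron-positive members, against 401 CPM in Mmp12-high cells, and at 125 CPM in iron-negative members, against 515 CPM.

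The third comparison set iron-positive members against iron-negative members. Of 7608 measured genes 86 were at least 2-fold higher (1.13%) and 98 at least 2-fold lower (1.29%), around a median log2 ratio of -0.13 over all genes. Scaling by the median ratio over well-expressed genes moved the share of these calls that were higher to 60.2%, against 46.7% as counted. A gene that passed the CPM limit only through 1 of the libraries had to be higher in it. With 1 library a side, these values hold for the libraries and not for the fractions in general.

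Slc40a1 differed most. It had 847 UMIs in 130 iron-positive members, or 189 CPM, and 58 UMIs in 18 iron-negative members, or 14.7 CPM, a log2 ratio of 3.67 (3.30 to 4.09). In the iron-negative library 5 members held 65.5% of its UMIs. The other eligible cells gave 74.0 CPM in the iron-positive and 4.62 CPM in the iron-negative library. Hmox1 had a ratio of 1.45 in members and 1.57 in the other cells, and Slc48a1 1.05 and 1.06. Of 20 measured iron and heme genes 3 were at least 2-fold higher and 1 lower in iron-positive members. The ferritin chains Fth1 and Ftl1 had ratios of 0.66 and 0.76 in members, against 0.36 and 0.40 in the other cells. Tfrc, the transferrin receptor that imports iron, stood at 18.7 CPM in iron-positive members, against 48.5 CPM in iron-negative members. The ratio was -1.37 (-1.76 to -0.99), and in the other cells it was 0.01. Without the osteoclast-marker cells Tfrc stood at 10.2 CPM in iron-positive and 30.9 CPM in iron-negative members, a ratio of -1.59. Cd163, the receptor for hemoglobin bound to haptoglobin, stood at 55.6 CPM in iron-positive members, against 46.2 CPM, a ratio of 0.26 (-0.02 to 0.55), while the other cells gave 61.1 and 12.9 CPM, a ratio of 2.24. Other choices of cells moved these values: Cd163 stood at -0.65 with no limit on Mmp12 and at 1.31 with a score without Pdpn, and Tfrc at -0.43 with a score without Mmp9 and at -1.97 with no limit on Mmp12. The differences between members and other cells were not tested.

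Beside the iron genes, Gclm, Cd36, the detoxifying reductase Ptgr1, the ubiquitin ligase Rnf128, Saa3, the sphingosine receptor S1pr1 and the metallothionein Mt2 were higher in iron-positive members, with ratios between 1.74 and 1.96. Of 14 NRF2 targets 5 were at least 2-fold higher and 0 lower, with a median of 0.67 in members and 0.43 in the other cells. S100a8, a neutrophil and monocyte protein, had a ratio of 1.78. Of the 10 neutrophil markers, whose sums are given above, 6 were detected in iron-positive and 5 in iron-negative members. Ly6g, Ngp and Retnlg were at 0 in members of both libraries. Ngp was also at 0 in the other cells of both libraries, and Ly6g in those of the iron-negative library. Sparc, a matrix protein of stromal cells, had a ratio of 3.49, which turned to -0.19 when 10% free RNA was subtracted. That free RNA was assumed and not measured, with its profile taken from the summed counts of all barcodes of the library. The 261 iron-positive Sparc UMIs lay in 163 members. The iron-positive library held 283 endothelial-like cells, against 3 in the iron-negative library. The 12 fibroblast markers summed to 125 CPM in iron-positive and 29.0 CPM in iron-negative members, against 116 and 31.1 CPM in the other cells. Among the named genes, the same subtraction changed the sign of no other called ratio, and the rest of the called genes were not examined.

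Lower in iron-positive members were genes of several kinds. Gatm stood at 120 CPM in iron-positive members, against 382 CPM in iron-negative members, and Fcrls, an Fc receptor-like protein, at 42.2 CPM, against 143 CPM. Ccr2, Cd72, Cbr2, Serpina3g and Pdcd1lg2, the second ligand of PD-1, had ratios between -1.29 and -1.83. Lpl, lipoprotein lipase, had a ratio of -2.11, but 5 cells held 73.0% of its iron-negative UMIs. Of 13 S and G2M genes 10 were at least 2-fold lower and 0 higher, with a median of -1.25 in members and -0.06 in the other cells. Single cells weighed on these values to differing degrees, with 5 iron-negative members holding 43.7% of the Stmn1, 65.6% of the Mki67, 74.5% of the Top2a and 88.5% of the Cenpf UMIs of that library. The Top2a ratio of -1.72 stood at -0.11 with thinned scores, at -0.09 with a score without Mmp9 and at -3.18 with the top 2.5%. Stmn1 stood at -0.17 with thinned scores, against -1.25. Arg1 stood at 3792 CPM in iron-positive members, against 3085 CPM in iron-negative members, a ratio of 0.30 (0.26 to 0.33), against 0.11 in the other cells.

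**Figure D4:**
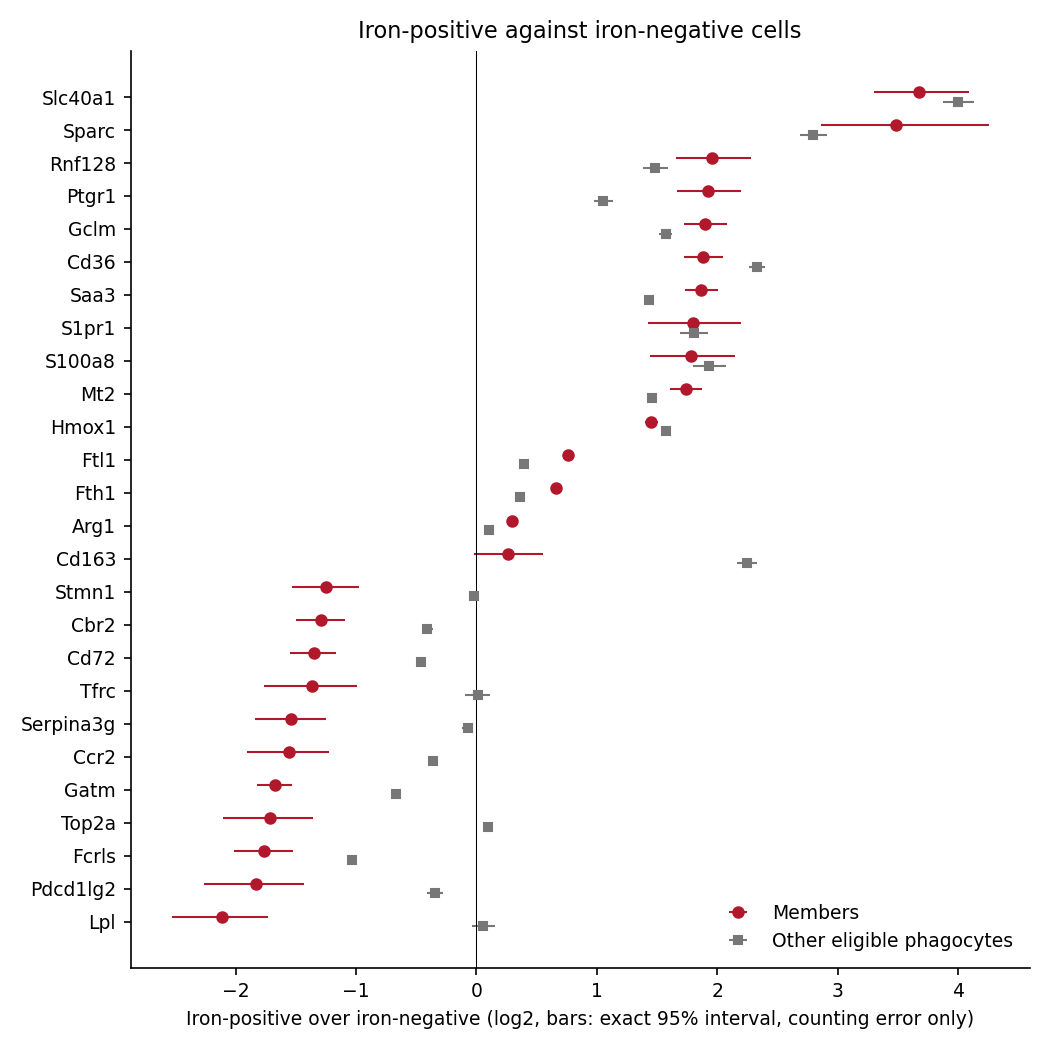
Log2 ratio of iron-positive over iron-negative CPM for 26 genes in members (circles) and in other eligible cells (squares), with exact 95% intervals that cover counting error only. Slc40a1 and Hmox1 have similar ratios in both kinds of cells, while Cd163 stands at 0.26 in members and 2.24 in the others and Tfrc at -1.37 and 0.01; under other choices of cells Cd163 ranged from -0.65 to 1.31 and Tfrc from -1.97 to -0.43 in members.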

How the data were processed

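The authors deposited raw UMI counts per gene and barcode for 2 single-cell libraries, 1 per magnetic fraction; the values are whole and unscaled. The genome build is mm10, per the submitters' processing notes, which name Cell Ranger 3.1.0, while the file headers name 5.0.0; which made the counts was not settled. Totals were 129921053 UMIs for the iron-positive and 132796517 for the iron-negative library. Here counts were summed over cells per library and expressed as CPM, and log2 ratios used each count plus 0.5. Ratio intervals are exact conditional and share intervals Clopper-Pearson, at 95%, for counting error only. Genes needed 10 CPM in either group. Calls needed a 2-fold difference, in both libraries where members met other cells. Named genes were the 15 largest and 15 lowest called ratios (10 each between fractions) at 50 CPM and 50 member UMIs or more, and, at 10 CPM, up to 6 per list and the iron and heme genes. Genes of the rule were left out, as were mitochondrial, ribosomal and numbered gene models. Genes named in a comparison with Mmp12-high or Pdpn-led cells, platelet genes and chromosome 5 neighbours were chosen after their values were seen. No doublet caller was run; alternatives left out cells instead. The scripts were tested on simulated data with known changes. Coordinates are from GENCODE, where 32158 of 32285 gene IDs matched. The members and the 23 gene lists were chosen with earlier results of these data known. Tools were matplotlib 3.10.9, pandas 2.3.3, scipy 1.17.1 and numpy 2.4.6 under Python 3.11.15.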

Additional observations from a re-analysis of the deposited data

How the results depend on the processing

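No paired analysis was possible because each fraction gave 1 library and the labels carry no replicate numbers. The ratio of member shares was 2.55 with no limit on Mmp12, 2.20 with scores from cells thinned to 3000 UMIs and 1.55 without cells holding markers of other immune cells, against 1.81, and it lay between those values in the other alternatives; taking the top 5% within each library fixes it. Some alternatives changed which cells were members. Of the 698 members, 455 were kept with thinned scores, 418 with a score without Mmp9 and 418 with a score without Pdpn. Genes called higher in members numbered 39 with the top 10% as members, 47 with thinned scores, 37 with a score without Mmp9 and 47 without Pdpn, against 83. Genes called lower numbered 71, 51 and 41 with the top 10%, thinned scores and a score without Pdpn, against 113. Genes lower in iron-positive members numbered 180 with the top 2.5%, 29 with the top 10%, 171 with no Mmp12 limit and 41 with thinned scores, against 98. The cause of these shifts was not tested. Ctsk (-1.21) and Acp5 (-0.67) reversed with a score without Mmp9, and Acp5 (-0.22) also without the osteoclast-marker cells. Sparc (-0.19) reversed with 10% assumed free RNA subtracted. That alternative left 90 member ratios within their spread and moved 54. The mean log2 ratio of Arg1 was 0.94 with a score without Pdpn and lay between 1.12 and 1.39 under the other cell choices. Removing the osteoclast-marker cells or the barcodes shared by both libraries was chosen after seeing the data. Depth limits genes with few member UMIs, such as Retnla.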

Other observations

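In the lists that follow, the counts of called genes are near those of the whole table, in which 1.09% of genes were called higher and 1.49% lower, and are given as a description of Mmp9-Pdpn phagocytes against other eligible cells. Of 13 type I interferon targets 0 were called, with medians of -0.18 in the iron-positive and 0.03 in the iron-negative library, although Rsad2 alone gave 0.64 and 1.11. Of 10 complement genes 0 were called, with medians of -0.42 and -0.22. C1qb, a chain of the first complement component, had log2 ratios of -0.49 and -0.47, while the complement receptor genes C5ar1 and C3ar1 had ratios between 0.41 and 0.60. Of 13 checkpoint and costimulatory ligands 0 were called. Cd274, which encodes PD-L1, had ratios of 0.45 and 0.50, and Havcr2, which encodes TIM-3, had -0.36 and -0.76. Of 22 macrophage transcription factors 0 were called, with Klf4 at 0.49 and 0.69. Of 15 angiogenic and growth factors 1 was called, Thbs1. Of 16 lysosomal enzymes 1 was called, Ctsl, and of 14 heat shock and immediate early genes 0 were called.

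F13a1, the coagulation factor XIII subunit A of macrophages, had a ratio of 0.76 in the iron-positive library and 1.64 in the iron-negative library. Cd163 had -0.14 and 1.84, with 55.6 CPM in iron-positive members, against 61.1 CPM in the other cells, and 46.2 CPM in iron-negative members, against 12.9 CPM. In the iron-negative library 5 members held 56.0% of its UMIs, and the difference between libraries was not tested.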
